A study of Mus musculus with 6 samples.

Results

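The interleukin-1 (IL-1) family and its receptors were followed through RNA sequencing of cultured mouse granulosa cells, the somatic cells around the oocyte within the follicle. The group comprised 10 genes taken by symbol from a table of 55860 genes: the ligands Il1a, Il1b, Il18 and Il33, the receptor antagonist Il1rn, the receptor chains Il1r1, Il1rap, Il1rl1 and Il18r1, and the adaptor Myd88. Each symbol matched 1 row. Cells came from ovaries of mice of the genotypes Il22r+/+ and Il22r-/-, with 3 libraries for each genotype. All cells had been isolated on a density gradient and kept for 12 h in medium with serum and antibiotics, so every library is from cells after culture. The labels state neither the age or strain of the animals, nor which exon of the interleukin-22 receptor gene was removed, nor whether the libraries came from separate animals, and they name no agent given to either genotype. P-values therefore measure the spread between these 6 libraries, which may be technical.

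IL-1α and IL-1β bind the receptor chain IL1R1, which then recruits the shared accessory chain IL1RAP. The same accessory chain serves the interleukin-33 receptor encoded by Il1rl1 and the interleukin-36 receptor encoded by Il1rl2, whereas interleukin-18 uses IL18R1 with a chain of its own. The assembled receptors bind MYD88, which passes the signal through IRAK kinases and TRAF6 to NF-κB. In the ovary, IL-1 is known from studies of ovulation, where it is linked to prostaglandin and matrix production in the follicle.

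The Il22r+/+ libraries held 17.4 M to 17.7 M counted reads (M, mega-reads), beside 14.9 M to 18.1 M for Il22r-/-. On the second principal component, Il22r-/- replicate 3 lay away from the rest (score 14.5 against -8.93 to 1.22). Il22ra1, taken here as the targeted gene, had 10 reads over Il22r+/+ and 7 over Il22r-/-, too few to check the genotype labels. Its partner chain Il10rb did not pass the test (log2 difference 0.28 ± 0.13, edgeR adjusted p = 0.113), although it did without Il22r-/- replicate 3 (adjusted p = 0.00354). Granulosa markers summed to between 7620 and 8454 CPM in Il22r+/+ and between 7516 and 8436 CPM in Il22r-/-. Of 14 tested, 6 rose and 3 fell by edgeR (64.3%, beside 45.7% of all tested genes). Nr5a2 rose 3.33-fold, Amhr2 2.77-fold and Inhba 1.62-fold, whereas Gja1 fell 1.48-fold, Nr5a1 1.45-fold and Foxl2 1.39-fold. Of the other 3 that rose, Bex1 rose 3.19-fold, and Fshr (0.257 and 5.99 CPM) and Kctd14 (0.710 and 5.64 CPM) met the minimum on counts through Il22r-/-. Cyp19a1, the aromatase gene of mature granulosa cells, was near 0 in both (36 and 1 reads). CPM is the number of counts per mega-read of the library after TMM scaling. For counts pooled over a genotype, including the limit for a count of 0, CPM and ratios use the count totals without TMM scaling.

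At an adjusted p under 0.05 (edgeR quasi-likelihood test, Benjamini-Hochberg over 15227 tested genes), Il1rap and Myd88 fell in Il22r-/- cells. Il1r1, Il18 and Il33 did not pass. Il1a, Il1b, Il1rn, Il1rl1 and Il18r1 had too few reads for the test. Thus 5 of the 10 genes were tested and 2 were called, beside 45.7% of all tested genes called in either direction, 22.1% called lower and 23.6% called higher. Il33 met the minimum on counts through its Il22r-/- libraries, so the 5 tested genes are not a sample of the family. In bulk RNA, fewer cells of a type and less RNA per cell cannot be told apart.

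The promoters of Il1rap and Myd88 are shown because these were the 2 members called. Both windows run from 250 bases before to 50 bases after the RefSeq start site (GRCm38.p6), 5′ to 3′ on the gene's strand. They were searched on both strands for a STAT motif, TTCNNNGAA, and for the degenerate 10-base NF-κB motif, and any match is in capitals. The 2 motifs shared no bases in these windows.
Il1rap, chr16:26581455-26581754, plus strand: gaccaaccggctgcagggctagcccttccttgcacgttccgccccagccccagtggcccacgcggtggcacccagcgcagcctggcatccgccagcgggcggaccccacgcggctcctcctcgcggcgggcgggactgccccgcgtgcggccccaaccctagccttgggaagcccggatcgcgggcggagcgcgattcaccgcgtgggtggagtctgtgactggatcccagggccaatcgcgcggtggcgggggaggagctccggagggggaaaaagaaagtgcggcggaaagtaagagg
Myd88, chr9:119339969-119340268, minus strand: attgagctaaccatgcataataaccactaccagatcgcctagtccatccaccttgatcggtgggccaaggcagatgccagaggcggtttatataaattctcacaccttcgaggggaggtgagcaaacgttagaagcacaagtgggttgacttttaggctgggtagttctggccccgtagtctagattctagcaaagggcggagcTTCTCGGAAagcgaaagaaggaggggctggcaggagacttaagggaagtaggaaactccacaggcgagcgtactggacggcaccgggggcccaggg
The Myd88 window held 1 STAT match, TTCTCGGAA, starting 46 bases before the start site, and the Il1rap window held none. The Myd88 window lies inside the gene as counted, whose 5′ end is at 119341411. It also lies within the span of the gene Acaa1a on the other strand. Neither window held the NF-κB motif. Among all 32851 RefSeq promoter windows of this length 8.30% held the STAT motif and 8.46% the NF-κB motif. Over the windows of all 10 genes, the other matches were 2 STAT matches in 1 of the 3 Il18r1 windows and 1 NF-κB match in 1 of the 2 Il1r1 windows. A match is a description of letters and not a binding site.

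Il1rap (ENSMUSG00000022514, mm10 chromosome 16, 26581704 to 26730117, plus strand) encodes the accessory chain without which IL-1, IL-33 and IL-36 receptors do not signal. It had 44.3, 40.6 and 32.1 CPM in Il22r+/+ replicates 1 to 3 and 13.2, 14.0 and 14.6 CPM in Il22r-/- replicates 1 to 3. The lowest Il22r+/+ library lay above the highest Il22r-/- library, which was also so for 56.0% of all tested genes in one direction or the other. The mean fell 2.79-fold, from 39.0 ± 6.25 CPM (SD, n = 3) to 14.0 ± 0.709 CPM, a log2 change of -1.48 ± 0.13 (SE, 95% interval -1.77 to -1.20, edgeR adjusted p = 9.66e-06). The log2 change lay between -1.61 and -1.39 when any 1 library was left out. The antisense gene Gm20319 overlaps 4.86% of the Il1rap exon length but had 1 and 5 pooled reads. Isoforms that encode membrane-bound and soluble IL1RAP are not separated in a count per gene.

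Il1r1 (ENSMUSG00000026072, chromosome 1, 40225080 to 40317257, plus strand), the ligand-binding chain that pairs with IL1RAP, had 22.3, 20.1 and 20.9 CPM in Il22r+/+ and 19.95, 23.2 and 24.4 CPM in Il22r-/-. The 2 ranges overlapped. The log2 difference was 0.09 ± 0.11, with a 95% interval of -0.15 to 0.33 (edgeR adjusted p = 0.537). A change as large as that of Il1rap lies outside this interval. Il1rap as a share of the summed FPKM of both chains was 52.6%, 53.1% and 46.2% in Il22r+/+ and 27.1%, 25.3% and 25.2% in Il22r-/-, where FPKM is a count scaled by gene length and library. Scaled by the longest transcript of each gene, an alternative chosen after seeing the data, the share was 71.8%, 72.2% and 66.4% against 46.1%, 43.8% and 43.6%. The genotypes did not overlap with either length, and for each an exact two-sided permutation test gave p = 0.1, the smallest that 3 against 3 libraries allow.

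Myd88 (ENSMUSG00000032508, chromosome 9, 119335934 to 119341411, minus strand), the adaptor of IL-1 and most Toll-like receptors, had 15.9, 13.8 and 18.1 CPM in Il22r+/+ and 11.1, 12.1 and 11.2 CPM in Il22r-/-. All Il22r-/- libraries lay below all Il22r+/+ libraries. The fall was 1.39-fold, from 15.96 ± 2.14 to 11.5 ± 0.525 CPM (log2 change -0.48 ± 0.13, edgeR adjusted p = 0.0136). Without Il22r+/+ replicate 3, the highest library, the log2 change was -0.38 and no longer passed (adjusted p = 0.0645, where the alternatives spanned 0.00735 to 0.0645). Acaa1a, a peroxisomal thiolase gene on the other strand, overlaps 11.3% of the Myd88 exon length. Acaa1a itself fell from 105 ± 6.23 to 88.2 ± 4.97 CPM (log2 change -0.26 ± 0.08, edgeR adjusted p = 0.0189). The strand setting of the counting is not given in the sources used here, so reads of the shared stretch cannot be told apart.

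**Figure D1:**
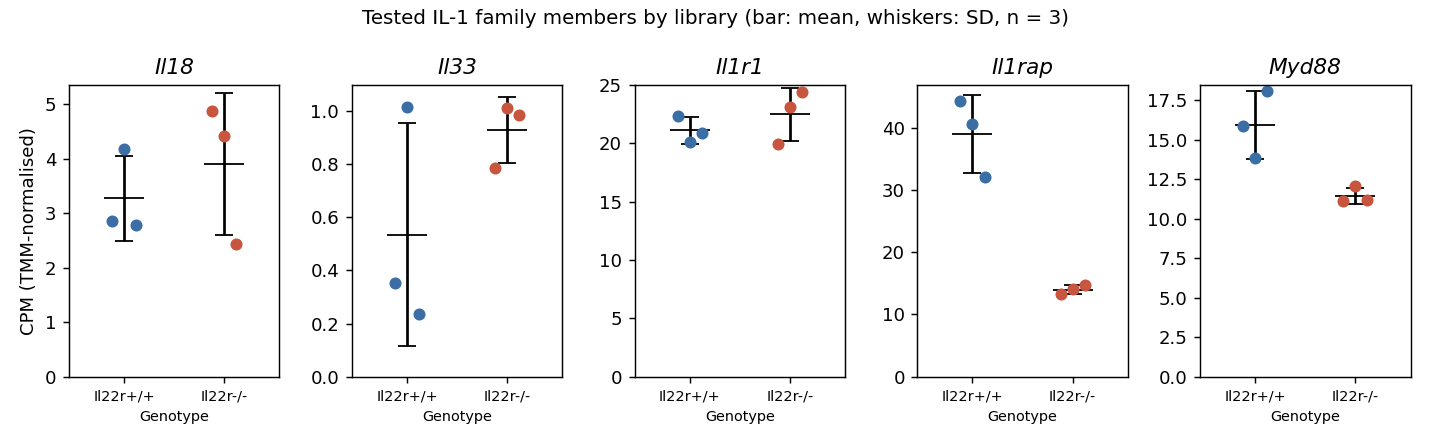
TMM-normalised CPM (vertical axes, each starting at 0) of the 5 tested members in the 3 Il22r+/+ and 3 Il22r-/- libraries. Points are libraries, the long bar is the mean and whiskers are the SD. Il1rap and Myd88 libraries separate by genotype, whereas those of Il18, Il33 and Il1r1 overlap.

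Among the ligands, Il18 (ENSMUSG00000039217, chromosome 9, 50554827 to 50581840) was the most abundant in each library. Il18 encodes a cytokine that is stored as a precursor and released after caspase-1 cleavage. It had 2.87, 4.18 and 2.78 CPM in Il22r+/+ and 4.88, 4.43 and 2.43 CPM in Il22r-/-. Il22r-/- replicate 3 was the lowest of the 6 libraries and replicate 1 of that genotype the highest. The log2 difference of 0.27 ± 0.29 did not pass (95% interval -0.38 to 0.92, edgeR adjusted p = 0.488).

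Il33 (ENSMUSG00000024810, chromosome 19, 29925114 to 29960718), a nuclear alarmin of barrier and stromal cells, had 6, 17 and 4 reads in Il22r+/+ and 15, 19 and 15 reads in Il22r-/-. By reads, Il22r+/+ replicate 2 lay among the Il22r-/- libraries and the remaining Il22r+/+ libraries lay below them. In CPM, Il22r+/+ replicate 2 was level with the highest Il22r-/- library, replicate 2 (1.01 CPM each). The log2 difference was 0.79 ± 0.52 (edgeR adjusted p = 0.239). Without Il22r+/+ replicate 2 it was 1.63 and passed (adjusted p = 0.0347, where the alternatives spanned 0.0347 to 0.554). Il33's receptor gene Il1rl1 had 0 reads throughout. A count of 0 over a genotype's pooled libraries, with the limit taken as 3 counts, allows a level of up to 0.0570 CPM for Il22r+/+ and 0.0586 CPM for Il22r-/-, for counting error only.

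The IL-1 ligands and their antagonist were at the edge of detection. Il1a (ENSMUSG00000027399, chromosome 2, 129299610 to 129309972), whose product acts from within or at the surface of the cell, had 6, 3 and 3 reads in Il22r+/+ and 0, 1 and 0 reads in Il22r-/-. Each Il22r+/+ library had more reads than any Il22r-/- library. Pooled, 12 reads against 1 gave a ratio of 11.7 of Il22r+/+ over Il22r-/-, with an exact 95% interval of 1.73 to 499 that covers counting error only. Fitted without a minimum on counts, Il1a did not pass (edgeR adjusted p = 0.0963). Gm14023, antisense to 11.2% of the Il1a exon length, had 13 and 11 reads.

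Il1rn (ENSMUSG00000026981, chromosome 2, 24336853 to 24351494), which encodes the IL-1 receptor antagonist, had 0, 1 and 0 reads in Il22r+/+ and 4, 9 and 10 reads in Il22r-/-. Here each Il22r-/- library had more reads than any Il22r+/+ library. Pooled, 1 read against 23 gave 0.0190 CPM (exact 95% interval 0.000481 to 0.106) against 0.449 CPM (0.285 to 0.674), a ratio of 23.7 of Il22r-/- over Il22r+/+ (3.84 to 975). Without a minimum on counts, Il1rn passed the edgeR quasi-likelihood test (log2 change 4.06 ± 1.23, adjusted p = 0.00470). In the standard fit it was not tested, and in absolute terms it stayed under 1 CPM in each library. Il1b (chromosome 2, 129364570 to 129371139), the secreted cytokine of the NLRP3 inflammasome, had no read in Il22r+/+ and 2, 0 and 2 reads in Il22r-/-. The pooled Il22r-/- level of 0.0782 CPM had an exact 95% interval of 0.0213 to 0.200 CPM, which holds the 0.0570 CPM that a count of 0 allows in Il22r+/+. Without a minimum on counts Il1b did not pass (edgeR adjusted p = 0.237). Its antisense gene Il1bos had 1 and 7 reads. Il18r1 (chromosome 1, 40465552 to 40500854), the interleukin-18 receptor chain, had 3 reads, all in Il22r+/+ replicate 3, and no fold is given.

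**Figure D2:**
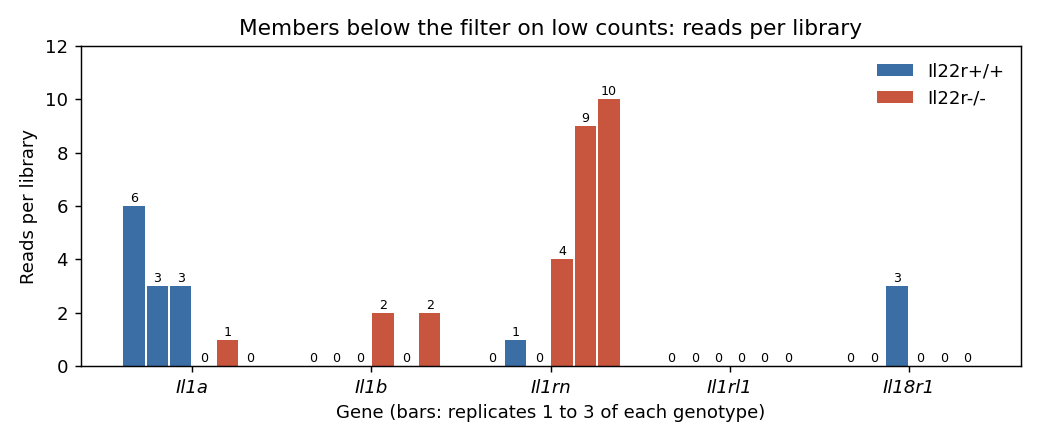
Reads per library (vertical axis) of the 5 members below the minimum on counts, with bars for replicates 1 to 3 of Il22r+/+ and then of Il22r-/-. Il1a reads lie mostly in Il22r+/+ (12 against 1) and Il1rn reads mostly in Il22r-/- (23 against 1), and Il1rl1 has none.

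Markers of other cell types moved with genotype beside these genes. Macrophage and monocyte markers, 14 in all, had a summed level of 9.42 to 11.8 CPM in Il22r+/+ and of 61.4, 91.5 and 30.0 CPM in Il22r-/- replicates 1 to 3, and Itgam (22 pooled reads in Il22r-/-) was at 0 in Il22r+/+. Of the 10 tested, 3 met the minimum on counts in both genotypes, and these rose by edgeR: Cd68 1.58-fold, Csf1r 2.80-fold and Lyz2 10.8-fold (23.6% of all tested genes were called higher). The other 7 were called higher too, but met the minimum only through Il22r-/-, which favours such a call. Il1rn had 0.210, 0.480 and 0.657 CPM in Il22r-/- replicates 1 to 3, from 4, 9 and 10 reads. These reads are too few to compare the order of the libraries with that of the macrophage sum. Of that sum, Lyz2 alone had 30.9, 43.5 and 14.0 CPM. Neutrophil markers summed to 0 to 0.0585 CPM in Il22r+/+ and 0.460 to 1.07 CPM in Il22r-/-, with S100a9, Ly6g and Retnlg at 0 throughout.

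Of 11 markers of ovarian surface epithelium and mesothelium 8 fell by edgeR (72.7%, beside 22.1% of all tested genes called lower), 1 of which, Bnc1, met the minimum through Il22r+/+ alone. Their sum went from between 953 and 970 CPM to between 172 and 188 CPM. Of that sum, Gpm6a alone had a mean of 387 CPM in Il22r+/+ and 8.05 CPM in Il22r-/-. Krt8 fell 1.23-fold, and the uncalled Krt19, Krt7 and Muc16 had log2 differences of 0.67, 0.98 and 0.01. Theca, stroma and smooth muscle markers summed to 656 to 697 CPM in Il22r+/+ and 475 to 813 CPM in Il22r-/-. Of 10 tested, 4 rose and 2 fell (60%, beside 45.7% of all tested genes). In this list Dcn fell 22.7-fold, Tagln fell 1.95-fold and Acta2 rose 1.67-fold, while Col1a2 (1.61 and 61.3 CPM), Myh11 (0.706 and 13.9 CPM) and Des (0.474 and 1.92 CPM) were called higher but met the minimum through Il22r-/-. Endothelial markers summed to 6.74 to 8.82 CPM and 7.82 to 11.5 CPM, and of 4 tested 2 rose and 1 fell (75%, beside 45.7% of all tested genes). Tek fell 1.62-fold, a lower call that was kept in 8 of 15 alternatives. Pecam1 (24 and 68 pooled reads) and Kdr (7 and 44) were called higher but met the minimum through Il22r-/-. Lymphocyte and mast cell markers summed to 18.8 to 22.1 CPM and 9.61 to 10.6 CPM, mostly Gata3, which fell 3.24-fold from 19.9 to 6.15 CPM. The other tested gene of this list, Kit (0.157 and 3.53 CPM), was called higher but met the minimum through Il22r-/-. Cd3e, Cd3g and Tpsb2 had no read. Oocyte markers summed to 1.54 to 1.70 CPM and 0.591 to 3.05 CPM. The part of any of these cells in the changes of Il1rap, Myd88 and Il1rn was not tested.

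**Figure D3:**
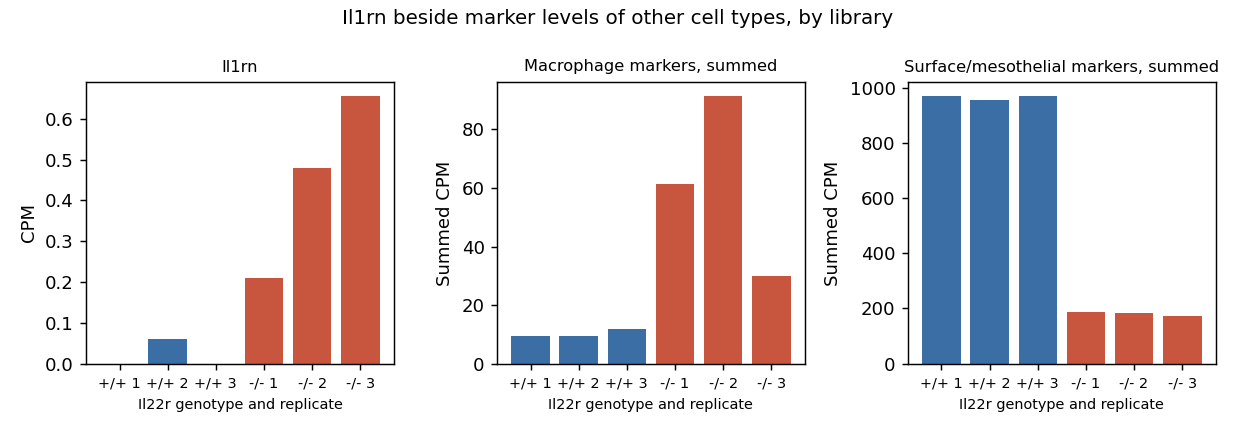
Il1rn in CPM (left) and the summed CPM of 14 macrophage markers (middle) and of 11 ovarian surface and mesothelial markers (right), 1 bar per library (horizontal axis: genotype and replicate). The Il1rn bars of Il22r-/- replicates 1 to 3 rest on 4, 9 and 10 reads, too few to rank these libraries.

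Levels of different genes were compared per length, on the deposited FPKM scale. In Il22r+/+ the order was Myd88 (6.37 ± 0.865 FPKM, n = 3), Il1rap (3.53 ± 0.563), Il1r1 (3.41 ± 0.187), Il18 (3.26 ± 0.772), Il33 (0.190 ± 0.149) and Il1a (0.123 ± 0.0520), with the other members at or below 0.0127 FPKM. The libraries of Myd88 lay above those of Il1rap. Il1rap, Il1r1 and Il18 overlapped with each other, as did Il33 with Il1a. In Il22r-/- the order was Myd88 (4.49 ± 0.208 FPKM), Il18 (3.82 ± 1.25), Il1r1 (3.57 ± 0.391), Il1rap (1.24 ± 0.0738), Il33 (0.325 ± 0.0451), Il1rn (0.0821 ± 0.0417), Il1b (0.0418 ± 0.0369) and Il1a (0.00909 ± 0.0157). Myd88 overlapped with Il18 and Il18 with Il1r1, whereas the Il1r1 libraries lay above those of Il1rap.

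This order depends on the length used for Il1rap. The deposited length of Il1rap, 11360 bases, is the union of the exons of its 7 annotated transcripts, and its longest single transcript has 4520 bases. Scaled by the longest transcript, Il1rap led the family in Il22r+/+ (8.87 ± 1.41 FPKM, beside 6.67 ± 0.907 for Myd88 with overlapping libraries). In Il22r-/- it then had 3.12 ± 0.186 FPKM, below Il1r1 at 3.90 ± 0.428. The difference between genotypes within 1 gene does not depend on this length.

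**Figure D4:**
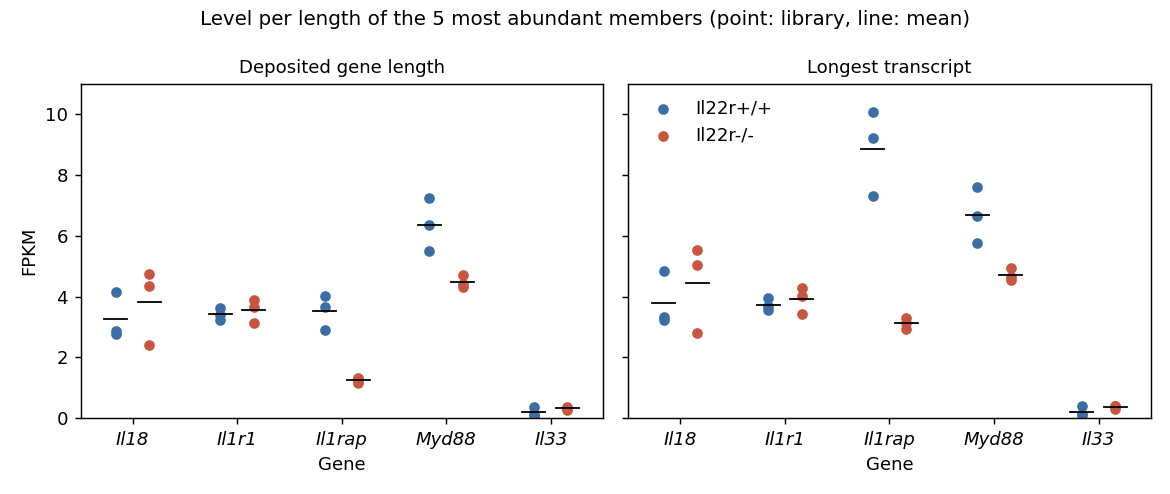
FPKM (vertical axis) of the 5 most abundant members by genotype, scaled by the deposited gene length (left) and by the longest transcript (right). Points are libraries and lines are means. Il1rap in Il22r+/+ moves from 3.53 to 8.87 FPKM with the length used, and in both panels its Il22r-/- libraries lie below its Il22r+/+ libraries.

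The ligands and the antagonist together made up 18.5%, 27.1% and 17.9% of the summed FPKM of all 10 genes in Il22r+/+, and 37.2%, 33.3% and 23.4% in Il22r-/-. The ranges overlapped (exact two-sided permutation p = 0.2). With longest transcripts they did not overlap (exact permutation p = 0.1, the smallest possible). Within the ligands and antagonist, Il18 accounted for 91.4 ± 2.26% of FPKM in Il22r+/+ and 88.2 ± 5.84% in Il22r-/- (exact permutation p = 0.5).

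Most other genes of the family were silent or nearly so. Of 12 further ligands and receptors listed, Il18rap, Il1f10, Il1f5, Il1f6 and Il1f8 had no read, and 2 were tested. The first, Il1rl2 (ENSMUSG00000070942, chromosome 1, 40324610 to 40367562), the interleukin-36 receptor chain that pairs with IL1RAP, rose. It had 1.81, 1.79 and 2.25 CPM in Il22r+/+ and 5.93, 8.54 and 4.93 CPM in Il22r-/-. The genotypes did not overlap, and the 3.31-fold rise (log2 change 1.73 ± 0.26, edgeR adjusted p = 0.000348) had the opposite sign to that of Il1rap. The second, Il18bp, which encodes the soluble inhibitor of interleukin-18, had 3.25 ± 0.738 and 3.13 ± 0.510 CPM (log2 difference -0.06 ± 0.25, edgeR adjusted p = 0.873), and the sign of this difference changed over the alternatives (-0.21 to 0.14).

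The decoy receptor gene Il1r2 had 0, 3 and 3 reads in Il22r+/+ and none in Il22r-/-, and without a minimum on counts it did not pass (edgeR adjusted p = 0.125). Il1rapl1, a homologue of Il1rap best known from neurons, had none in Il22r+/+ and 3, 3 and 6 reads in Il22r-/-, and it passed in that same fit (edgeR adjusted p = 0.0258). Sigirr, an inhibitory receptor, had 5 and 7 reads pooled, Il1f9 had 2 and 1, and Il1rapl2 had 0 and 1. On chromosome 1, Il1r2, Il1r1, Il1rl2, Il1rl1, Il18r1 and Il18rap lie in this order on the plus strand between 40074079 and 40551705. In this cluster Il1r1 had 1072 and 1185 pooled reads and Il1rl2 99 and 348, whereas Il1r2 and Il18r1 had 6 and 3 in all and Il1rl1 and Il18rap none.

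Downstream of the receptors, 5 of 22 tested genes of the MyD88 to IKK relay changed (22.7%, beside 45.7% of all tested genes), 1 higher and 4 lower. The list's median log2 difference was -0.03, and the median of all tested genes was 0.03. Irak3, an inhibitory IRAK, fell 1.76-fold from 3.90 ± 0.559 to 2.24 ± 0.623 CPM (edgeR adjusted p = 0.0271). Tifa, a TRAF6-binding adaptor, fell 1.74-fold from 7.10 ± 0.574 to 4.05 ± 1.31 CPM, and Tollip, an adaptor that restrains IL-1 receptor signalling, fell 1.28-fold from 115 ± 2.49 to 90.1 ± 4.01 CPM. Traf6, the ubiquitin ligase at the centre of the relay, rose 1.36-fold from 34.4 ± 1.56 to 46.9 ± 8.74 CPM (edgeR adjusted p = 0.0135). Irak2, outside the naming rule and named after its values were seen, fell 1.22-fold. The kinase Irak1 had 136 and 124 CPM (edgeR adjusted p = 0.146) and Irak4 7.69 and 7.06 CPM (0.582).

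Calls in this relay were sensitive to single libraries. Irak3 did not pass without Il22r+/+ replicate 2 or 3 (edgeR adjusted p = 0.0625 and 0.102) or without Il22r-/- replicate 1 or 2 (0.0763 and 0.0851). Tifa did not pass without Il22r+/+ replicate 1 or 3 (0.0518 and 0.0773), nor Traf6 without Il22r+/+ replicate 2 or 3 (0.0586 and 0.0572). Tollip passed in each of these fits, with a log2 change between -0.40 and -0.35 around its value of -0.36.

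Genes that process or release IL-1β and interleukin-18 changed in 5 of 10 tested cases (50%, near the 45.7% of all tested genes), 1 higher and 4 lower, with a median log2 difference of -0.00024. P2rx7, the ATP-gated channel that triggers the NLRP3 inflammasome, rose 1.99-fold, from 1.35, 1.43 and 1.42 CPM to 2.31, 3.20 and 2.89 CPM. Without Il22r-/- replicate 2 it did not pass (edgeR adjusted p = 0.0524). Txnip, a thioredoxin-binding protein, fell 1.71-fold from 315 ± 18.5 to 184 ± 29.0 CPM. Nlrp10, an NLR protein without leucine-rich repeats, fell 1.60-fold from 72.8 ± 2.48 to 45.4 ± 5.42 CPM, and the initiator caspase gene Casp8 fell 1.30-fold from 43.2 ± 2.96 to 33.3 ± 2.05 CPM. Nek7, which binds NLRP3 and was named after its values were seen, fell 1.19-fold.

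Apart from Pycard, the inflammasome core itself was hardly read. Pycard, named after its values were seen, had 62 and 64 pooled reads (log2 difference -0.06, edgeR adjusted p = 0.942) and met the minimum through Il22r+/+. Casp1, the protease that cleaves both cytokines, had 0, 4 and 2 reads in Il22r+/+ against 7, 5 and 0 for Il22r-/-. Nlrp3, Casp4 and Aim2, named after their values were seen, had 5, 2 and 10 reads in Il22r-/- replicate 1, 8, 7 and 2 in replicate 2 and none in replicate 3. Nlrp3 and Casp4 had none in Il22r+/+ and Aim2 had 1. Nlrp1b, Nlrc4 and Mefv of this list were likewise unread in Il22r-/- replicate 3. Nlrp6 was not, with 2 reads there beside 1 for replicate 1 and 1 for replicate 2. That library was also the shallowest, at 14.9 M counted reads. Counts this small do not rank the libraries, so their order was not compared with that of the macrophage sum or of Il1rn. The part of macrophages in these reads was not tested.

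Among Toll-like receptors and their co-receptors, which share MYD88 with the IL-1 receptors, 2 of 10 tested genes rose and 1 fell (30%, below the 45.7% of all tested genes; median log2 difference 0.15). Tlr13, a receptor of bacterial ribosomal RNA, had 3, 1 and 2 reads in Il22r+/+ against 17, 27 and 31 for Il22r-/- (log2 change 3.53 ± 0.56, edgeR adjusted p = 0.000538). It met the minimum on counts only through Il22r-/-, which favours a call, and leaves 1 riser among the 9 genes that met it in both genotypes. Unc93b1, which carries endosomal receptors to their place, rose 1.58-fold from 8.92 ± 1.28 to 14.1 ± 0.858 CPM. Ticam1, the adaptor of the MYD88-independent route, had 31.0 ± 1.31 and 24.5 ± 3.43 CPM and fell 1.27-fold (adjusted p = 0.0314). Of the fits that left out a library, Ticam1 passed only in that without Il22r-/- replicate 3 (p up to 0.104 in the others), and it did not pass with library size alone (0.0979).

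Of 20 tested genes that IL-1 is known to induce in many cells, 6 fell and 1 rose (35%, below the 45.7% of all tested genes), with a median log2 difference of -0.33. Among the 17 that met the minimum on counts in both genotypes 5 fell, whereas Il6 met it only through Il22r+/+ and Nos2 only through Il22r-/-. Il6, a cytokine, had 33, 20 and 46 reads in Il22r+/+ against 5, 5 and 4 for Il22r-/- (log2 change -2.85 ± 0.45, edgeR adjusted p = 0.000483). The cytokine gene Lif had 41.5, 41.5 and 39.7 CPM against 8.56, 8.75 and 5.91 CPM, and these did not overlap. Icam1, an adhesion molecule, had 7.60, 6.68 and 8.35 CPM against 1.79, 2.61 and 1.51 CPM. Ptgs2 and Ptges, which make prostaglandin E2 in sequence, fell 1.65-fold and 1.39-fold, and Plat, the tissue plasminogen activator, fell 1.26-fold, these being named after their values were seen. Nos2, the inducible nitric oxide synthase, rose from 0.234, 0.477 and 0.533 CPM to 12.0, 18.5 and 21.3 CPM. The direct NF-κB feedback genes Nfkbia, Tnfaip3, Nfkbiz and Zc3h12a did not pass (edgeR adjusted p = 0.220, 0.0565, 0.0915 and 0.0665), with log2 differences of -0.19, -0.35, -0.33 and -0.41. The other uncalled genes went both ways. Cxcl1 (0.52), Cxcl5 (0.47), Has2 (0.87), Adamts1 (0.06) and Birc3 (0.05) had positive log2 differences. Those of Vcam1 (-0.69), Tnfaip6 (-0.51), Adamts4 (-0.23) and Sod2 (-0.01) were negative. Below the minimum on counts, Ccl2 had 0 and 27 pooled reads and Cxcl2 had 2 and 8. These genes answer to many inducers, and the 6 libraries hold no sample to which IL-1 was added.

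**Figure D5:**
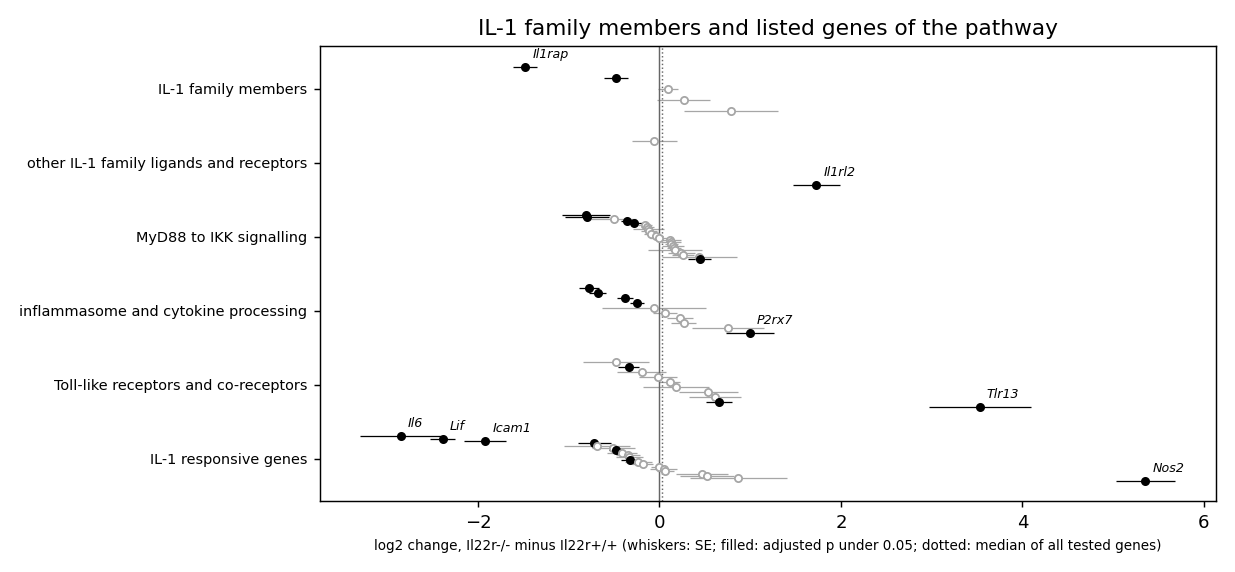
Log2 difference of Il22r-/- minus Il22r+/+ (horizontal axis, whiskers SE) for each tested member and listed gene, grouped by list (vertical axis), with filled points for edgeR adjusted p under 0.05. Il1rap (-1.48) and Il1rl2 (1.73) lie on opposite sides of 0, and most genes of the MyD88 to IKK relay lie near the median of all tested genes.

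Genes whose profile over the 6 libraries lay closest to that of each called member were taken, among 10335 protein-coding candidates averaging 5 CPM or more, by Euclidean distance between centred log2 CPM. Closeness over these same libraries fixes a similar log2 change in advance, so the changes below are a description only. For Il1rap these were Thsd7a (distance 0.184), Fam219a (0.228) and Tnc (0.252), with log2 changes of -1.42, -1.45 and -1.48. Tnc, the matrix glycoprotein tenascin-C, went from 833 to 298 CPM. For Myd88 they were Tubg1 (0.0580), Btg3 (0.123) and Sgce (0.129), with log2 changes of -0.49, -0.43 and -0.48. Tubg1 encodes γ-tubulin and had 100.2 and 71.2 CPM.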

How the data were processed

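The authors deposited whole-number read counts per gene and FPKM values for 3 Il22r+/+ and 3 Il22r-/- libraries. The submitters' processing notes name featureCounts (1.5.0-p3) and mm10. Which aligner and strand setting were used is not given in the sources used here. Deposited FPKM equalled count divided by gene length and by 1 constant per library, 0.936 to 1.05 times its count total.

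Counts were filtered with filterByExpr (15227 of 55860 genes kept), scaled with TMM and tested in edgeR 4.0.16 (robust glmQLFit and glmQLFTest, genotype as the only term) under R 4.3.3, with Benjamini-Hochberg adjustment over all tested genes. The SE of a log2 change was its absolute value divided by the square root of the test's F statistic. The 95% intervals of log2 changes were built on this SE. The edgeR step was tested on simulated data. It recovered 52.2% of 1.5-fold, 92.5% of 2-fold and 97.0% of 4-fold changes, and called 9 of 15027 unchanged genes. The simulation used 1 dispersion (0.0139) for all genes and both genotypes, so it does not carry the wider spread of the Il22r-/- libraries. Pooled counts got exact 95% intervals, and a count of 0 a floor of 3 counts. Replicates differed by more than sampling noise (chi-square per gene 4.76 to 6.77 within Il22r+/+ and 10.2 to 27.3 within Il22r-/-). Exon overlaps and transcript lengths came from GENCODE M21.

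The members and gene lists were chosen with earlier results of these data known. Genes named are all members and other family genes, up to 4 called genes of each other list by size of change, Il22ra1 and Il10rb, and the 3 nearest profiles to each called member, and any other gene named was chosen after its values were seen. Alternatives were DESeq2 1.42.0, limma-voom (limma 3.58.1), other scalings and filters, a replicate block, each library left out, and limma on log2 FPKM with a pseudocount of 1 or 0.1.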

Additional observations from a re-analysis of the deposited data

How the results depend on the processing

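The number of members called was 2 in the main analysis and between 1 and 3 when a library was left out: 1 without Il22r+/+ replicate 3, where Myd88 did not pass, and 3 without Il22r+/+ replicate 2, where Il33 did. It was also 3 with no minimum on counts, where Il1rn passed, and 2 in each of the other alternatives. Il1rap kept its direction and its call in all 15 alternatives. Over all genes, 6963 were called, and 5411 to 8243 with a library left out. Scaling by library size alone moved the median of all tested genes from 0.03 to 0.13 on the log2 scale and the share of calls that were higher to 63.6%, from 3592 of 6963, and Myd88 then had a log2 change of -0.37. No pairing by replicate number was seen (correlations of same-numbered deviations 0.026, -0.041 and -0.028, and not every library was closest to its own number). The labels do not say what the numbers mark, and these correlations cannot exclude a shared preparation. With a replicate block 6405 genes and the same number of members, 2, were called. The listed pathway genes called numbered 21, and 16 to 29 with a library left out. Small list counts moved by more than 1.5 times: the MyD88 to IKK relay had 0 to 4 higher (main 1) and 2 to 6 lower (main 4), processing genes 0 to 2 higher (main 1), Toll-like receptors 1 to 3 higher (main 2) and 0 to 1 lower (main 1), IL-1 responsive genes 1 to 3 higher (main 1) and the other family genes 1 to 2 higher (main 1). Among the markers, macrophage genes ranged from 3 to 13 higher (main 10), the 3 under a minimum of 50 reads in 3 libraries, which tests fewer genes. Pooled ratios ranged from 7.54 to 13.1 for Il1a and from 15.7 to 30.3 for Il1rn with a library left out, and no ratio could be formed without the library that held the lone read of the lower group. Depth limits the 5 members below the minimum on counts.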
